A study of Homo sapiens with 10 samples.

Results

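The insulin-like growth factor (IGF) axis was followed through RNA-Seq of 3 liver cancer cell lines as 10 genes, chosen by symbol out of the 58302 genes listed in each table. They were the ligand gene IGF2, the receptor genes IGF1R, IGF2R and INSR, and the genes for the binding proteins IGFBP1 to IGFBP6, and all 10 were found in all 10 libraries. In this system IGF ligands bind the tyrosine kinase receptor IGF1R and, for IGF2, also a form of the insulin receptor, and these receptors act through IRS adaptors, PI3K and AKT. IGF2R, the cation-independent mannose 6-phosphate receptor, lacks kinase activity and takes IGF2 to lysosomes, while the IGFBPs hold ligand outside the cell and are cut by proteases that release it. The liver is the main source of circulating IGFs and of several IGFBPs, and IGF2 is a fetal growth factor that some hepatocellular carcinomas express again.

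The study asked how PSPC1, a nuclear paraspeckle protein, and PTK6, a non-receptor tyrosine kinase, act together in hepatocellular carcinoma (HCC) cells, and sequenced 1 library per condition. SK-hep1 cells gave 5 libraries, from a Mock control and from cells that overexpressed PSPC1 alone, PSPC1 together with PTK6 (PSPC1/PTK6), the mutant PSPC1-Y523F, which lacks the tyrosine that PTK6 phosphorylates, or that mutant together with PTK6. Mahlavu cells gave 3, from a Mock control, from cells with the C-terminal fragment PSPC1-CT131, and from cells labelled as carrying a PSPC1 mutated in its NLS (nuclear localization sequence), called Mut-NLS-CT131 here. Huh-7 cells gave 2, from untreated cells and from cells given HGF, the ligand of the MET receptor, at 10 ng/ml for 48 h, although the label of the untreated cells carries the same treatment text. The overexpressing cells were plasmid transfectants, and the labels do not say whether they were drug selected or whether a library came from 1 clone or a pool.

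Libraries held between 15245935 and 24278662 reads on genes. No PSPC1 read was found in SK-hep1 mock, against 209 with PSPC1, 930 with PSPC1/PTK6, 71 with PSPC1-Y523F and 2539 with PSPC1-Y523F/PTK6, so the PSPC1 level differed widely between transfectants. In Mahlavu, PSPC1 reads were 1582 in mock, 899 in PSPC1-CT131 and 632 in Mut-NLS-CT131, so the whole-gene count did not show either fragment. All 8 hepatocyte markers examined reached 1 FPKM (fragments scaled for gene length and library size) in Huh-7, with a sum of at least 11470 FPKM, but only SERPINA1 did so in SK-hep1 and Mahlavu, where the sums stayed at or under 42.4 FPKM and ALB, APOA1, APOB, TTR, FGB and HNF4A, among others, were under 1 FPKM. AFP, GPC3 and DLK1, markers of hepatoblasts or tumour liver, had sums of at least 15330 FPKM in Huh-7 and at most 0.223 FPKM in the other lines. None of 6 endothelial and none of 4 leukocyte markers reached 1 FPKM in SK-hep1 or Mahlavu. In Huh-7, 2 endothelial markers (PECAM1, CDH5) did so in at least 1 library, with sums of 6.80 to 6.98 FPKM over the 6, and no leukocyte marker did. Of 5 fibroblast markers, 3 did so in at least 1 library of SK-hep1 and 4 in Mahlavu and in Huh-7, with sums of 23.1 to 53.8, 39.4 to 55.3 and 167 to 180 FPKM, and DCN was under 1 FPKM in all 3 lines. With 1 library per condition, none of the differences below has a replicate check and no p-value is given. Fewer cells that express a gene and less of its RNA per cell cannot be told apart in bulk samples.

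The ligand gene IGF2 (ENSG00000167244, GRCh38 chromosome 11, minus strand, 2129112 to 2141238) separated Huh-7 from the other lines. It had 17607 reads in untreated and 17101 reads in HGF-treated Huh-7, or 379 and 396 FPKM. In SK-hep1 it had 10 reads in mock, 1 with PSPC1, 11 with PSPC1/PTK6, 1 with PSPC1-Y523F and 8 with PSPC1-Y523F/PTK6, and in Mahlavu 1, 0 and 0 reads. The level in these 8 libraries was at most 0.163 FPKM, and the lower Huh-7 library was 2331 times that. In these libraries 3 reads would be about 0.05 FPKM, and a lower level was not detectable. The locus overlaps IGF2-AS, INS-IGF2 and MIR483, of which IGF2-AS had 3.81 and 4.56 FPKM in Huh-7 and none elsewhere, INS-IGF2 was at 0 in all libraries, and how reads were assigned by strand is not given in the sources used here.

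The other genes of the locus and the remaining ligands did not share that level. H19, the imprinted noncoding RNA 127641 bp from IGF2, ranged from 0.04 FPKM (Mut-NLS-CT131) to 0.79 FPKM (PSPC1/PTK6) in SK-hep1 and Mahlavu and was 0.86 and 1.80 FPKM in Huh-7. IGF1 had 1 read in Mahlavu mock and none in the other 9 libraries, and INS had none in any. Thus IGF2 was the sole ligand gene of the family above 0.1 FPKM in Huh-7, and no ligand gene reached 1 FPKM in SK-hep1 or Mahlavu.

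IGF1R (ENSG00000140443, chromosome 15, plus strand, 98648971 to 98964530), the main signalling receptor, was present in every library. Its level was 24.1 FPKM in SK-hep1 mock, 44.7 with PSPC1, 45.4 with PSPC1/PTK6, 55.0 with PSPC1-Y523F and 33.1 with PSPC1-Y523F/PTK6. The Mahlavu values were 35.6 FPKM in mock, 39.1 in PSPC1-CT131 and 28.8 in Mut-NLS-CT131. Both Huh-7 libraries, at 14.3 and 14.0 FPKM, lay below all 8 others, with a gap of 1.68-fold between the ranges. SK-hep1 and Mahlavu overlapped.

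INSR (ENSG00000171105, chromosome 19, minus strand, 7112255 to 7294034), the insulin receptor, ran the other way. Huh-7 had 32.0 and 33.9 FPKM, above every other library by at least 2.43-fold. Mahlavu had 8.10 FPKM in mock, 7.55 in PSPC1-CT131 and 13.2 in Mut-NLS-CT131. SK-hep1 had 5.67 FPKM in mock, 4.55 with PSPC1, 5.07 with PSPC1/PTK6, 5.38 with PSPC1-Y523F and 2.28 with PSPC1-Y523F/PTK6, the lowest of all 10. The SK-hep1 and Mahlavu ranges overlapped after quantile normalization (setting all libraries to the same distribution of values) but not as deposited or with read counts scaled by TMM, where Mahlavu was the higher.

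The ratio of IGF1R to INSR, both per length, therefore crossed 1 between the lines. It was 4.25 in SK-hep1 mock, 9.84 with PSPC1, 8.97 with PSPC1/PTK6, 10.2 with PSPC1-Y523F and 14.5 with PSPC1-Y523F/PTK6, so that all 4 transfectants lay above their mock. In Mahlavu it was 4.40 in mock, 5.18 in PSPC1-CT131 and 2.19 in Mut-NLS-CT131. In Huh-7 it was 0.448 untreated and 0.412 with HGF. The lengths behind the deposited FPKM, 1976 bp for IGF1R and 2687 bp for INSR, are shorter than the lengths that the tables list, 11803 and 8954 bp. With the listed lengths every ratio was lower, from 8.08 with PSPC1-Y523F/PTK6 to 0.230 in HGF-treated Huh-7, and the lines kept their sides of 1.

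**Figure D1:**
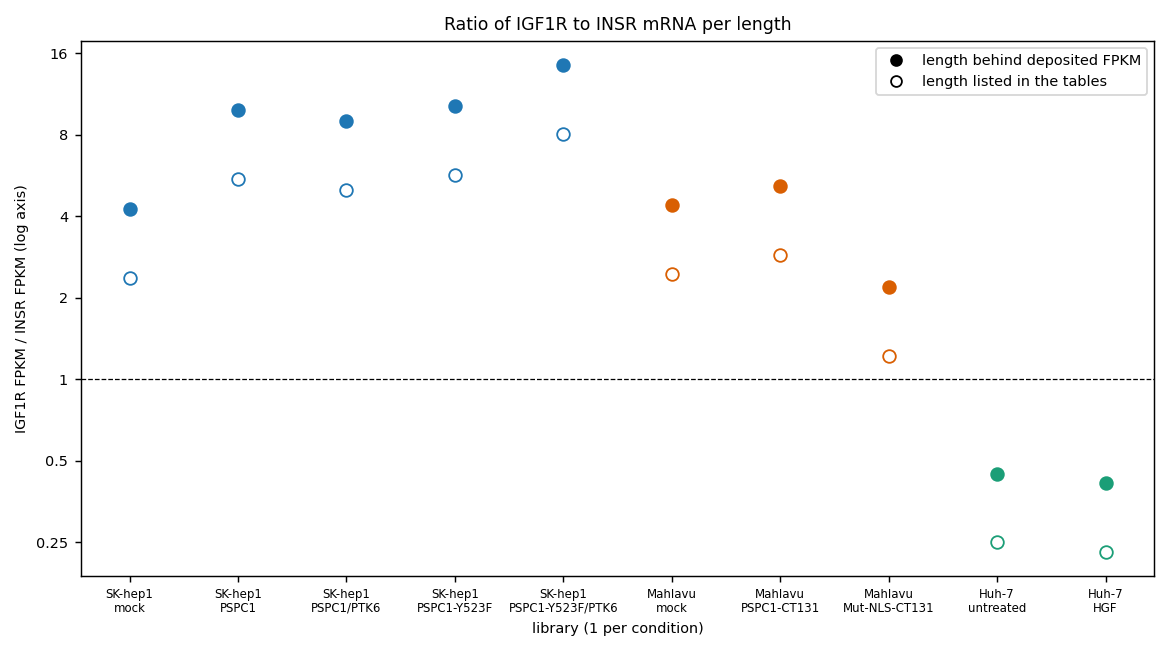
The ratio of IGF1R to INSR FPKM on a log axis for each library along the horizontal axis, with filled points for the length behind the deposited FPKM and open points for the length the tables list. The ratio is above 1 in the 8 SK-hep1 and Mahlavu libraries and below 1 in both Huh-7 libraries by either length.

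IGF2R (ENSG00000197081, chromosome 6, plus strand, 159969099 to 160113507) was highest in Mahlavu. The values were 167 FPKM in Mahlavu mock, 221 in PSPC1-CT131 and 218 in Mut-NLS-CT131. SK-hep1 had 56.2 FPKM in mock, 37.1 with PSPC1, 45.6 with PSPC1/PTK6, 45.7 with PSPC1-Y523F and 38.7 with PSPC1-Y523F/PTK6, and after quantile normalization the Mahlavu range lay 2.89-fold above the SK-hep1 range. Huh-7, at 118 and 106 FPKM, fell between them. IGF2R exceeded IGF1R per length in Mahlavu (ratios of 4.68 to 7.57) and Huh-7 (8.27 and 7.56), while in SK-hep1 the ratio was 2.33 in mock and between 0.829 and 1.17 in the transfectants. With the listed lengths the SK-hep1 transfectants were also above 1, at 1.15 to 1.63.

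The 6 binding proteins split by line as well. IGFBP2 (ENSG00000115457, chromosome 2, plus strand, 216632828 to 216664436), a binding protein abundant in fetal tissues, had 409 FPKM in Mahlavu mock, 224 in PSPC1-CT131 and 124 in Mut-NLS-CT131. In SK-hep1 it had 23 reads in mock, 1 with PSPC1, 5 with PSPC1/PTK6, 0 with PSPC1-Y523F and 21 with PSPC1-Y523F/PTK6, at most 0.669 FPKM, so that the quantile-normalized ranges were 126-fold apart. Huh-7 was intermediate at 18.6 and 26.1 FPKM. IGFBP5, its neighbour on chromosome 2 at 7668 bp and on the opposite strand, had 0 to 5 reads in the 8 SK-hep1 and Mahlavu libraries and 47 and 57 reads (1.15 and 1.50 FPKM) in Huh-7. The level of IGFBP2 in Mahlavu was thus not shared by the adjacent gene.

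IGFBP1 (ENSG00000146678, chromosome 7, plus strand, 45888357 to 45893668), an insulin-repressed hepatocyte product, was low throughout. It had 78 reads in SK-hep1 mock, 39 with PSPC1, 158 with PSPC1/PTK6, 71 with PSPC1-Y523F and 233 with PSPC1-Y523F/PTK6, or 2.34, 1.25, 4.29, 2.18 and 6.23 FPKM. No read was found in any Mahlavu library, where 3 reads would be 0.0858 to 0.102 FPKM, and Huh-7 had 9 and 6 reads. IGFBP3 (ENSG00000146674, 45912245 to 45921874, minus strand), the main IGF carrier in serum, lies 18576 bp from IGFBP1 and was far more abundant. Its values were 118 FPKM in SK-hep1 mock, 186 with PSPC1, 322 with PSPC1/PTK6, 350 with PSPC1-Y523F and 366 with PSPC1-Y523F/PTK6. Mahlavu had 31.9 FPKM in mock, 45.8 in PSPC1-CT131 and 45.3 in Mut-NLS-CT131, and Huh-7 had 9.24 and 7.64 FPKM. All 3 lines were separate for IGFBP3, with SK-hep1 above Mahlavu by 2.69-fold after quantile normalization and Huh-7 below both by 3.45-fold as deposited.

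IGFBP4 (ENSG00000141753, chromosome 17, plus strand, 40443461 to 40457731), an inhibitory binding protein cleaved by PAPPA, had 36.9 FPKM in SK-hep1 mock, 163 with PSPC1, 170 with PSPC1/PTK6, 262 with PSPC1-Y523F and 285 with PSPC1-Y523F/PTK6. Mahlavu had 250 FPKM in mock, 314 in PSPC1-CT131 and 139 in Mut-NLS-CT131. Huh-7 had 15.0 and 16.4 FPKM, below the other 8 libraries by at least 2.24-fold. The SK-hep1 and Mahlavu ranges overlapped, although the mock libraries of the lines were more than 2-fold apart, with Mahlavu higher by 2.71 on the log2 scale.

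IGFBP6 (ENSG00000167779, chromosome 12, plus strand, 53097436 to 53102345), which prefers IGF2 over IGF1, had 120 FPKM in SK-hep1 mock, 103 with PSPC1, 598 with PSPC1/PTK6, 104 with PSPC1-Y523F and 215 with PSPC1-Y523F/PTK6. The 2 libraries with PTK6 were thus above the 3 without it. Mahlavu values were 82.7 in mock, 114 in PSPC1-CT131 and 86.7 in Mut-NLS-CT131, while Huh-7, at 9.76 and 10.7 FPKM, lay 7.73-fold below the lowest of the others. SK-hep1 and Mahlavu overlapped only through the PSPC1-CT131 library, without which, an alternative chosen after the data had been seen, the SK-hep1 range was the higher.

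Summed per length, the 6 IGFBPs gave 277 FPKM in SK-hep1 mock, 454 with PSPC1, 1094 with PSPC1/PTK6, 718 with PSPC1-Y523F and 874 with PSPC1-Y523F/PTK6. The Mahlavu sums were 774, 697 and 395 FPKM in the order mock, PSPC1-CT131, Mut-NLS-CT131, and Huh-7 had sums of 54.0 and 62.6 FPKM. IGFBP3, IGFBP4 and IGFBP6 made up nearly all of the SK-hep1 sum, with IGFBP4 at 13.3% in mock, 35.9% with PSPC1, 15.5% with PSPC1/PTK6, 36.4% with PSPC1-Y523F and 32.7% with PSPC1-Y523F/PTK6. IGFBP6 was 54.7% of the sum with PSPC1/PTK6 and 14.4% to 43.2% in the other SK-hep1 libraries. IGFBP2 was 52.9% of the sum in Mahlavu mock and 32.1% and 31.4% in PSPC1-CT131 and Mut-NLS-CT131. These sums and shares depend on the gene length used. With the lengths the tables list, the Mahlavu sums were 477 FPKM in mock, 505 in PSPC1-CT131 and 273 in Mut-NLS-CT131, so that mock was no longer the highest, and IGFBP2 was 30.8% and IGFBP4 52.4% in Mahlavu mock.

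Of the 8 members that averaged 1 FPKM or more over SK-hep1 and Mahlavu, 2 (IGFBP1, IGFBP3) were higher in every SK-hep1 library, against 25.7% of 12902 genes, and 2 (IGF2R, IGFBP2) were higher in every Mahlavu library, against 22.7%. Of the 9 members that averaged 1 FPKM or more over all libraries, 2 (IGF2, INSR) were above all others in both Huh-7 libraries, against 30.7% of 13858 genes, and 4 (IGF1R, IGFBP3, IGFBP4, IGFBP6) were below them, against 23.5%. Separation of the lines was therefore common among all genes. IGFBP1 had under 1 FPKM in Mahlavu, IGFBP2 in SK-hep1 and IGF2 in both. These members passed the limit only through the lines where they were high, so the filter fixed the direction in which they could be counted. The lines also differ in origin and, for Huh-7, in the deposited form (FPKM without counts), and what separates them cannot be told apart.

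In SK-hep1, each overexpressing library was compared with the same Mock control library, so the 4 comparisons are not independent of each other. Differences are log2 fold changes of quantile-normalized FPKM after adding 1, which understates the change of low genes, and a gene was counted when it had a mean of at least 1 FPKM and differed by at least 2-fold. IGF2, IGFBP2 and IGFBP5 did not reach that level in SK-hep1, which left 7 members. With PSPC1, 1 of the 7 was at least 2-fold higher, against 3.38% of 12410 genes, and none was lower, against 2.19%. With PSPC1/PTK6, 3 were higher, against 5.09% of 12436 genes, and none lower, against 3.32%. With PSPC1-Y523F, 3 were higher, against 2.83% of 12382 genes, and none lower, against 2.46%. With PSPC1-Y523F/PTK6, 3 were higher, against 3.44% of 12412 genes, and none lower, against 1.59%. The median log2 fold changes of the 7 members were −0.19, 0.77, 0.05 and 0.78 in these comparisons, beside −0.03, −0.04, −0.01 and −0.04 for all genes. The members were chosen with earlier results of these data known, so the counts and medians describe the set and do not test it.

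IGFBP4 was the member counted in all 4. Its log2 fold changes were 2.08 with PSPC1, 2.12 with PSPC1/PTK6, 2.67 with PSPC1-Y523F and 2.78 with PSPC1-Y523F/PTK6. Reads went from 1758 in mock to 7251, 8936, 12134 and 15242, and the depth-scaled ratios were 4.42 (95% counting interval 4.20 to 4.66), 4.61 (4.38 to 4.86), 7.09 (6.75 to 7.46) and 7.74 (7.37 to 8.14). These exact binomial intervals cover counting error only. The transfectants did not overlap with mock, and both libraries with the Y523F form lay above both with the unmutated form, but all 4 ratios rest on the single mock library. Under the 6 other scalings and pseudocounts tried, the IGFBP4 fold changes stayed above 2-fold, from 1.95 for PSPC1 to 3.06 for PSPC1-Y523F/PTK6 on the log2 scale. Differences correlated only weakly with GC content in these comparisons, with Spearman's rho between −0.09 and 0.25 across genes, which are not independent replicates.

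IGFBP3 was counted in 3 of the comparisons, with log2 fold changes of 1.47 with PSPC1/PTK6, 1.48 with PSPC1-Y523F and 1.57 with PSPC1-Y523F/PTK6, and had 0.67 with PSPC1. Reads were 3004 in mock, 4433, 9029, 8685 and 10461, with every transfectant above mock. IGFBP6 was counted with PSPC1/PTK6 alone, at 2.26 (13052 reads against 2372 in mock). Its other values were −0.19 with PSPC1, −0.19 with PSPC1-Y523F and 0.78 with PSPC1-Y523F/PTK6. IGFBP1 was counted with PSPC1-Y523F/PTK6 at 1.20 (233 reads against 78, a ratio of 2.67 with an interval of 2.05 to 3.49), and was 0.72 with a pseudocount of 5 FPKM.

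Among the receptors, IGF1R was counted with PSPC1-Y523F at 1.13 and stood at 0.87, 0.77 and 0.52 with PSPC1, PSPC1/PTK6 and PSPC1-Y523F/PTK6. Reads of 1031 in mock and 1788, 2143, 2290 and 1587 in the transfectants, in the order of the IGFBP4 values, put all 4 above mock. IGF2R was −0.52, −0.35, −0.24 and −0.41 in that order, below mock in all 4 but never by 2-fold. INSR was −0.20, −0.45, 0.05 (−0.06 at the lowest under other settings) and −0.88. The last of these, 149 reads against 330, was 2-fold lower with the FPKM as deposited or a pseudocount of 0.1 FPKM (−1.06 at the lowest).

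The promoter windows of the 3 binding proteins with the largest differences in SK-hep1 are shown to set the genes that differed beside their upstream sequence. Each runs from 250 bases before to 50 bases after the RefSeq start in GRCh38.p14, 5′ to 3′ on the strand of the gene. Capitals mark the GC box GGGCGG on either strand and the TATA box TATAAA on either strand. IGFBP4 is at chr17:40443200-40443499 (plus), IGFBP3 at chr7:45921223-45921522 (minus) and IGFBP6 at chr12:53097417-53097716 (plus).
IGFBP4: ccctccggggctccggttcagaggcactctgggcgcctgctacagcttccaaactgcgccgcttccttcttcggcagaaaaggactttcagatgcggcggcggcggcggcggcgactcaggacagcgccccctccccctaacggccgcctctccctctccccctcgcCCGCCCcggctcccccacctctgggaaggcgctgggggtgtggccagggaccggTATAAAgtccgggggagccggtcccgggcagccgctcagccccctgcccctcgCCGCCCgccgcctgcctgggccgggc
IGFBP3: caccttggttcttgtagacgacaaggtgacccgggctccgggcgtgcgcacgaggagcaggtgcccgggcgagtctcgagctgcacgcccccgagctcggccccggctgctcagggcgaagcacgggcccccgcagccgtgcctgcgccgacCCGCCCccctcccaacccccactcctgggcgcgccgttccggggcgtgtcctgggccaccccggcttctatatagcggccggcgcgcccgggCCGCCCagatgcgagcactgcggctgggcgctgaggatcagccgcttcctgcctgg
IGFBP6: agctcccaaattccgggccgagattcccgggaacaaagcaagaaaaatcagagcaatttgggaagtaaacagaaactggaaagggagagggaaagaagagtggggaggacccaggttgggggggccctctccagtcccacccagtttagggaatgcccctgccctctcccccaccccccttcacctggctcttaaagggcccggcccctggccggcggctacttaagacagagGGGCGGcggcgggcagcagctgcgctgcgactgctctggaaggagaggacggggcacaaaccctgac

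The IGFBP4 window holds a TATAAA that begins at base −29 from the start, 2 GC boxes and 30 CpG dinucleotides. The IGFBP3 window holds 2 GC boxes, 36 CpG and no TATAAA, and the IGFBP6 window 1 GC box, 12 CpG and no TATAAA. Of 35116 windows of this length in the RefSeq table, 45.0% hold a GC box and 11.5% a TATAAA, and the median number of CpG is 14. RefSeq windows were matched for 8 of the 10 members, and IGF2 and IGFBP1 were without an entry. The receptor genes IGF1R, IGF2R and INSR, whose largest differences in SK-hep1 were smaller, hold 55, 41 and 36 CpG and between 2 and 6 GC boxes each. Only exact matches were counted, so the letters TATATA in the IGFBP3 window, a close variant of TATAAA, were not. The matches describe letters and do not show that a factor binds.

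The effect of adding PTK6 was read within SK-hep1 from PSPC1/PTK6 against PSPC1 and from PSPC1-Y523F/PTK6 against PSPC1-Y523F, which share no library. On the PSPC1 background, 1 of 7 members (IGFBP6) was at least 2-fold higher, against 3.09% of 12391 genes, and none lower, against 1.87%. IGFBP6 went from 1907 to 13052 reads, a log2 fold change of 2.45 and a read ratio of 5.80 (5.52 to 6.09). On the PSPC1-Y523F background, 1 of 7 (IGFBP1) was higher, against 3.78% of 12398 genes, and none lower, against 2.2%. IGFBP6 went from 1996 to 4775 reads there, a log2 fold change of 0.98 and a read ratio of 2.08 (1.97 to 2.19), just under 2-fold after quantile normalization and above it with FPKM as deposited, with normalization within the line or with TMM. The difference between both IGFBP6 effects has no test. Across genes, Spearman's rho of the differences with GC content was −0.31 on the PSPC1 background and −0.02 on the other. The IGFBP6 log2 fold change on the PSPC1 background was at least 2.31 under every other scaling, pseudocount and fit.

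IGFBP1 was also the higher with PTK6 on both backgrounds, from 39 to 158 reads (0.91 on the log2 scale) and from 71 to 233 reads (1.21). The first of these passed 2-fold with a pseudocount of 0.1, FPKM as deposited or TMM, and the second did not with a pseudocount of 5. IGFBP3 differed by 0.80 on the PSPC1 background and 0.09 on the other, and IGFBP4 by 0.04 and 0.11. IGF1R was at −0.10 and −0.62, and INSR at −0.25 and −0.93. On the PSPC1 background, IGF1R, INSR and IGFBP4 changed sign with the scaling, between −0.19 and 0.02, −0.30 and 0.13, and −0.15 and 0.17. PTK6 itself had 277 reads in mock, 307 with PSPC1, 1060 with PSPC1/PTK6, 230 with PSPC1-Y523F and 679 with PSPC1-Y523F/PTK6. The PSPC1 reads differed as well between these pairs, as given above, and their part in the result was not tested.

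In Mahlavu, IGF2, IGFBP1 and IGFBP5 had under 1 FPKM and 7 members were compared. With PSPC1-CT131, 1 of 7 (IGFBP2) was at least 2-fold lower than in mock, against 3.16% of 12415 genes, and none higher, against 3.17%. With Mut-NLS-CT131, 1 of 7 (again IGFBP2) was lower, against 3.26% of 12425 genes, and none higher, against 3.16%. Both comparisons share the Mahlavu mock library. IGFBP2 reads were 14706 in mock, 7022 in PSPC1-CT131 and 3757 in Mut-NLS-CT131. The log2 fold changes were −1.05 and −1.91, and the depth-scaled reads were lower than in mock by 1.83-fold (1.78 to 1.88) and 3.29-fold (3.18 to 3.41). The first was under 2-fold with FPKM as deposited, with normalization within the line and with TMM, and the second stayed over 2-fold under all 6 other scalings and pseudocounts.

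PSPC1-CT131 against Mut-NLS-CT131 gave 1 of 7 members higher, against 4.23% of 12453 genes, and none lower, against 4.59%. This was IGFBP4, with 13660 reads against 5828 and a log2 fold change of 1.22. IGFBP4 was 0.27 with PSPC1-CT131 and −0.95 with Mut-NLS-CT131 against mock, with the first at −0.13 once length and GC content were taken out. Across genes, differences of PSPC1-CT131 followed GC content, with Spearman's rho of 0.57 against mock and 0.57 against Mut-NLS-CT131. The longest IGFBP4 transcript has 62.5% GC, and the IGFBP4 difference was 0.78 once length and GC content were taken out, under 2-fold. IGFBP2, at 57.1% GC, was −1.31 for PSPC1-CT131 against mock in the same fit.

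The remaining Mahlavu values were under 2-fold. IGFBP3 was 0.73 with PSPC1-CT131 and 0.58 with Mut-NLS-CT131, IGFBP6 0.54 and 0.10, and IGF2R 0.37 and 0.40. INSR was 0.29 and 0.79, and IGF1R 0.34 and −0.24. The INSR value of PSPC1-CT131 changed sign with the scaling, since its reads went from 494 to 402 and its depth-scaled read ratio was 0.932 (0.815 to 1.07).

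In Huh-7, the HGF comparison gave the smallest differences. None of 9 members was at least 2-fold higher or lower after HGF, against 0.428% and 0.393% of 14262 genes, and IGFBP1, with 9 and 6 reads, was too low to compare. The log2 fold changes ran from −0.24 (IGFBP3, 178 and 137 reads) to 0.48 (IGFBP2). IGFBP2 went from 482 to 630 reads, a ratio of 1.40 with a counting interval of 1.24 to 1.58. IGF2 differed by 0.06 and IGF2R by −0.14, with intervals of the read ratio of 1.02 to 1.07 and 0.861 to 0.927. The intervals for IGF1R, INSR, IGFBP3, IGFBP4, IGFBP5 and IGFBP6 included 1, so no difference was detectable at this depth.

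Genes downstream of the receptors were taken from lists of the pathway. Of the 14 substrates, adaptors and feedback genes, 11 were compared with SK-hep1 mock and 1, 2, 1 and 1 were at least 2-fold lower in the 4 comparisons in the order above, and none was higher. Over all genes 2.19%, 3.32%, 2.46% and 1.59% were lower and 3.38%, 5.09%, 2.83% and 3.44% higher. GRB10, an adaptor that restrains IGF1R and insulin receptor signalling, was the gene counted each time, and it passed the 1 FPKM limit only through the mock library that the 4 comparisons share. It had 176 reads in mock, 1 with PSPC1, 32 with PSPC1/PTK6, 2 with PSPC1-Y523F and 0 with PSPC1-Y523F/PTK6, where 3 reads would be 0.064 FPKM against 4.20 in mock. Mahlavu and Huh-7 had 53.0 to 77.4 FPKM of GRB10, so SK-hep1 was low for this gene even in mock. IRS1, the substrate adaptor of both receptors, was −1.04 with PSPC1/PTK6, with 5530 reads in mock and 3139 in that library. As deposited it had 50.0 FPKM in mock and 25.7 with PSPC1/PTK6, just under 2-fold. No gene of this list was counted in the other comparisons. Over all genes, 1.87% to 4.59% were counted per direction in those of SK-hep1 and Mahlavu, and 0.428% and 0.393% with HGF.

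Of the 15 PI3K, AKT and FOXO genes, 14 were compared with SK-hep1 mock. In the same order, 1, 0, 1 and 1 were at least 2-fold lower and none was higher. The shares over all genes were again 2.19%, 3.32%, 2.46% and 1.59% lower and 3.38%, 5.09%, 2.83% and 3.44% higher. PIK3R1, the regulatory subunit of PI3K, was −1.24 with PSPC1. FOXO1, a transcription factor held out of the nucleus by AKT, was −1.18 with PSPC1-Y523F and −1.10 with PSPC1-Y523F/PTK6. Its reads ran from 13 to 117 over the SK-hep1 libraries. FOXO1 passed the 1 FPKM limit only through the mock library that both comparisons share. In Mahlavu, 14 genes of the list were compared. RICTOR, a subunit of mTORC2, was −1.09 with PSPC1-CT131 against Mut-NLS-CT131, where 4.59% of all genes were lower. Differences in that comparison followed GC content (Spearman's rho 0.57), and no RICTOR value with GC content taken out is given. With Mut-NLS-CT131 against mock, 1 gene of the list was at least 2-fold higher, against 3.16% of all genes. With PSPC1-CT131 against mock none was counted, against 3.17% higher and 3.16% lower. No gene of that list was counted with HGF, against 0.428% higher and 0.393% lower over all genes.

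Among the 9 extracellular regulators, STC1 and STC2, stanniocalcins that inhibit the IGFBP protease PAPPA, and HTRA1, a secreted serine protease, were counted. Between 3 and 5 of the 9 were compared in each SK-hep1 and Mahlavu comparison. STC2 was 1.50 with PSPC1/PTK6 (1898 reads against 538), where 5.09% of all genes were higher. STC1 was 1.63 with PSPC1-Y523F and 1.70 with PSPC1-CT131 in Mahlavu, where 2.83% and 3.17% of all genes were higher. It was lower with PTK6 on both SK-hep1 backgrounds, at −1.60 and −1.75, where 1.87% and 2.2% of all genes were lower. HTRA1 was −1.13 with PSPC1 and −1.34 with PSPC1/PTK6, with 84 reads in mock against 20 and 24. Over all genes 2.19% and 3.32% were lower in these comparisons. HTRA1 was under 1 FPKM in both transfectants and passed the limit only through the mock library that both comparisons share. PAPPA itself was 3.30 to 5.90 FPKM in SK-hep1 and at most 0.39 FPKM in the other lines. Of the 4 IGF2 mRNA-binding protein genes, 3 were compared in SK-hep1 and Mahlavu and 4 in Huh-7, and none was counted. Over all genes, 1.59% to 5.09% were counted per direction in the SK-hep1 and Mahlavu comparisons, and 0.428% and 0.393% with HGF. LIN28B of that list was present in Huh-7 alone (132 and 121 FPKM) and could not be compared elsewhere.

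The genes nearest to each member but IGFBP5, which averaged under 1 FPKM, over the 10 libraries were found by the Euclidean distance of log2(FPKM + 1), centred on the gene, among 13858 genes. For IGF2 these were S100P, ASGR2 and APOB, at distances of 0.240 to 0.322 against a range of 8.63 for IGF2 itself. For INSR they were PCOLCE2, CASK and STT3B, for IGF1R DBNDD2, SERTAD3 and TRAF2, and for IGF2R CRYBB2P1, RAB42 and CHCHD2. For IGFBP6 they were FGF2, IL6 and IFIT3 (1.28 to 1.45), for IGFBP4 PDGFB, TNS2 and FLNA (1.39 to 1.82), and for IGFBP3 SPRED3, ADORA1 and NAV1 (1.38 to 1.51). For IGFBP2 they were TUBA4A, ZBED10P and ANXA3 and for IGFBP1 AMPD3, ABALON and FGF12. No member was among the 3 nearest genes of another. These points share libraries and depth, and the ranking is a description.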

How the data were processed

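RNA of 10 libraries, 1 per condition, was compared for the 10 genes of the IGF axis. For SK-hep1 and Mahlavu the authors deposited a read count per gene, not normalized, and FPKM, and for Huh-7 the authors deposited FPKM only. The submitters' processing notes name TopHat2 2.0, HTSeq 0.6.1, edgeR and GRCh38.p12. The paper's methods name another genome build, rRNA depletion and quantile normalization, whereas the labels describe selection of poly-A RNA and the deposited FPKM are not quantile normalized. FPKM followed from the count, the library total and 1 length per gene, which gave the reads behind the Huh-7 values. Each table held 58302 genes after 8 lines without a gene were left out. Symbols came from a gene name table, and positions matched GENCODE 29 for 97.5% of shared genes and 8 of 10 members.

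FPKM were quantile normalized over the 8 SK-hep1 and Mahlavu libraries and over both Huh-7 libraries, 1 was added, and log2 fold changes of 2-fold or more were counted among genes that averaged 1 FPKM or more in the compared libraries. Levels, and the comparison of Huh-7 with the other lines, used FPKM as deposited. Ratios of reads carry 95% exact binomial intervals. Reads have no molecular identifiers, so intervals and the floor of 3 reads cover counting error only. With 1 library per condition no test was possible. The members and lists were chosen with earlier results of these data known. The text names all members, up to 3 genes per list and comparison with the largest difference of at least 2-fold, genes of the IGF2 locus, and the 3 genes nearest to each member that averaged 1 FPKM or more over the libraries. Alternatives were pseudocounts of 0.1 and 5, FPKM as deposited, normalization within each line, counts scaled by TMM, other filters and a fit of length and GC content. Calculations were tested on simulated data. Python 3.11.15, numpy 2.4.6, pandas 2.3.3, scipy 1.17.1, matplotlib 3.10.9 and, for TMM, edgeR 4.0.16 in R 4.3.3 were used. Promoter windows came from RefSeq (GRCh38.p14). Results for some genes of the lists are not reported here.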

Additional observations from a re-analysis of the deposited data

Results flagged for a closer look

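IGF2R stood in opposite directions when PTK6 was added, with a log2 fold change of 0.17 on the PSPC1 background (2450 and 3553 reads) and −0.16 on the PSPC1-Y523F background (3148 and 3069 reads). Both values are under 2-fold, each rests on 1 library against 1, and the difference between them was not tested.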

How the results depend on the processing

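No paired analysis was possible because each condition has 1 library and the replicate numbers name no shared culture. None of the 15 member values of at least 2-fold changed direction, although such values had little room to do so under these settings. Of all 72 member values 8, each under 2-fold, changed sign under at least 1 other scaling, pseudocount or fit. Of 90 recounts of the members 78 stayed within 1.5 times, including those of HGF, where no member was counted. All settings reuse the same libraries and do not stand in for replicates. PSPC1/PTK6 against PSPC1 gave 2 members in place of 1 with a pseudocount of 0.1, with FPKM as deposited and with TMM (IGFBP1 added). PSPC1-Y523F/PTK6 against PSPC1-Y523F gave 0 with a pseudocount of 5, 2 with a pseudocount of 0.1 (INSR added), and 2 with FPKM as deposited, normalization within the line or TMM (IGFBP6 added), in place of 1. PSPC1-CT131 against mock gave 0 in place of 1 (IGFBP2) with FPKM as deposited, normalization within the line or TMM, and PSPC1-CT131 against Mut-NLS-CT131 gave 0 in place of 1 (IGFBP4) with length and GC content taken out. As reported, these members had log2 fold changes of 0.91 to 1.22 in size. IGFBP1, at 1.25 to 6.23 FPKM in SK-hep1, had depth-scaled read ratios of 3.43 and 2.85 with PTK6 added, taken without the added 1 FPKM.

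Over all genes, a pseudocount of 0.1 or 5 moved the number counted from 691 to 1079 or 261 with PSPC1, from 655 to 1056 or 214 with PSPC1-Y523F, from 615 to 923 or 271 and from 742 to 1164 or 269 for PTK6 added to PSPC1 and to PSPC1-Y523F, from 786 to 1200 or 313 with PSPC1-CT131, from 798 to 1284 or 314 with Mut-NLS-CT131, from 1098 to 1715 or 409 between these, and from 117 to 302 or 7 with HGF. With a pseudocount of 5, PSPC1/PTK6 went from 1046 to 451 and PSPC1-Y523F/PTK6 from 624 to 247. A mean of at least 5 FPKM gave 396, 673, 346 and 354 for the 4 SK-hep1 comparisons with mock, 378 and 413 for added PTK6 and 8 for HGF, where no filter gave 293. PSPC1-CT131 against mock gave 1196 with FPKM as deposited and 496 with length and GC content taken out, and against Mut-NLS-CT131 595 with that fit. FPKM as deposited moved the median log2 fold change of all genes to 0.15 with PSPC1/PTK6, 0.20 for PTK6 added to PSPC1, −0.24 with PSPC1-CT131 and −0.13 for PSPC1-CT131 against Mut-NLS-CT131, where it was between −0.04 and 0.01. Genes higher and lower then numbered 1001 and 240 (633 and 413 as reported), 662 and 127 (383 and 232), 195 and 1001 (394 and 392) and 302 and 966 (527 and 571), with 361 and 257 (427 and 197) for PSPC1-Y523F/PTK6 and 287 and 602 (393 and 405) for Mut-NLS-CT131. Ranges at least 2-fold apart left 1987 of 6241 genes between SK-hep1 and Mahlavu and 3392 of 7511 for Huh-7, and no filter gave 13377 for Huh-7. The libraries without replicates, and the few reads behind IGF2, IGFBP1, IGFBP2 and IGFBP5 in some lines, limit every value here.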
